A study of Homo sapiens with 6 samples.

Results

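Fibroblast growth factor 19 (FGF19), FGF2, the receptors FGFR1, FGFR2, FGFR3, FGFR4 and FGFRL1, the co-receptor β-Klotho (KLB), the carrier FGFBP1 and the adaptor FRS2 were followed in pancreatic cancer cells with and without induced GLI2. These 10 genes were taken from the deposited table by symbol, out of 25442 genes kept. The data are 6 RNA-seq libraries of YAPC, a human pancreatic ductal adenocarcinoma (PDA) line. Of these, 3 came from YAPC-iGLI2 cells, which carried the plasmid pRetroX-Tight-Puro with human GLI2 behind a doxycycline (Dox) inducible promoter, and 3 from YAPC-iEV cells, which carried the same plasmid as an empty vector (EV). Both kinds of cells carried rtTA, the Dox-responsive activator, and both were kept in Dox for 6 days, so Dox and rtTA were shared by the groups. The sources used here do not say whether the engineered cells were clones or pools, or whether the replicates were separate cultures, and p-values measure the spread between these libraries only.

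FGFs are secreted ligands that bind receptor tyrosine kinases together with a cofactor. Most of them act near the cell that makes them and need heparan sulfate chains on the cell surface, whereas FGF19 is an endocrine ligand that has low affinity for heparan sulfate and binds FGFR4 in particular through β-Klotho. In the body FGF19 is known as a hormone of the ileum, made in response to bile acids through the nuclear receptor FXR, and it represses bile acid synthesis in the liver. Ligand-bound receptors phosphorylate the adaptor FRS2, which recruits GRB2 and leads to activation of ERK, and ERK activity raises feedback inhibitors such as the Sprouty proteins.

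The stretches of DNA before the starts of FGFR3 and FGFR2, the receptor genes that rose, are shown for the letters of GLI and GC-box motifs. They come from RefSeq on build GRCh38.p14, whereas the positions of genes in the expression table are on hg19. Of the 10 members, 8 had an entry, with 13 windows of 300 bases (250 before and 50 after a start), and FGF19 and FGFR1 had none. Capitals mark the GC box GGGCGG or its reverse complement CCGCCC in the first 2 sequences. In the last, capitals mark the reverse complement of ACCACCC, the core of the GLI consensus GACCACCCA.
FGFR3 (chr4:1793043-1793292, plus strand): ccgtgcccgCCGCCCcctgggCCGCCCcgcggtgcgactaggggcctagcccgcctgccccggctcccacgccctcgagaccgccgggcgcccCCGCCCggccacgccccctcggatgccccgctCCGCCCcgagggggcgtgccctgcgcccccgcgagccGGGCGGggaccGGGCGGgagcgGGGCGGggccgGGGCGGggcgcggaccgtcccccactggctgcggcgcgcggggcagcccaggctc
FGFR2 (chr10:121598459-121598694, minus strand): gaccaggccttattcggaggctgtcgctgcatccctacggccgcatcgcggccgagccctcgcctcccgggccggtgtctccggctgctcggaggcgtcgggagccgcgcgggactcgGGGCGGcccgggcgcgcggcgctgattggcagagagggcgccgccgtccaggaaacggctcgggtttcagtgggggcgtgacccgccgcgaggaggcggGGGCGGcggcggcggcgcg
FGFR2 inner start (chr10:121596737-121596765, minus strand): gccctgaaaggGGGTGGTggtggggagca
The FGFR3 stretch holds 8 GC boxes and its window has 86.3% G and C. The FGFR2 stretch, which runs from 250 to 15 bases before the start, holds 2. Of the 2 windows of FGFR4, which was not called, 1 holds 7 GC boxes with 78.7% G and C and the other holds none. A GC box on either strand is in 45.0% of all 35116 windows, so its presence does not mark out FGFR3 or FGFR2. GACCACCCA was in none of the 13 member windows and in 0.236% of all windows. Its core ACCACCC, which lies inside it, was in 1 of the 13 windows and in 4.77% of all windows. That match lies before a start of FGFR2 that is 1799 bases downstream of the outermost one, and its first base is 109 bases before that start. These are matches of letters, not sites shown to be bound.

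The table's values are read as FPKM, fragments per kilobase of transcript scaled to the library's total, which allows levels of different genes to be set side by side. The number of reads is unknown, so no counting error is given. Genes averaging 1 FPKM or more across the libraries were tested on log2(FPKM + 1) with limma, two-sided, with Benjamini-Hochberg adjustment over all 12493 genes tested, and called at an adjusted p under 0.05. Adding 1 understates the fold change of low genes. GLI2 had between 0.344 and 0.466 FPKM in iEV and between 94.5 and 207 FPKM in iGLI2 libraries, with replicate 1 the lowest of the iGLI2 libraries. Of 6 epithelial markers, EPCAM, KRT7, KRT19 and CDH1 were between 51.0 and 987 FPKM in every library, whereas KRT8 and KRT18 are listed at 0 in all 6. Of 9 stromal, immune and endothelial markers, 7 were under 1 FPKM in every library, with DCN at 0. The summed level of all 9 was 4.71 to 5.27 FPKM in iEV and 5.35 to 6.45 FPKM in iGLI2 libraries. CD68, the highest of the 9, averaged 3.04 FPKM in iEV and 2.94 FPKM in iGLI2 libraries and was not called. COL1A1, 1 of the 9, rose (1.41 to 2.69 FPKM, limma adjusted p = 0.0110). Among the epithelial markers, EPCAM (405 to 523 FPKM, limma adjusted p = 0.00709) and CDH1 (53.2 to 68.9 FPKM, limma adjusted p = 0.0169) also rose. KRT7 and KRT19 were not called. The part of these changes in the results below was not tested. A listed 0 was not read as absence, for the following reason. Leaving aside the main small RNA families, 19 genes combine a 0 in some library with 5 FPKM or more in another of that group.

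FGF19, FGFR2 and FGFR3 rose with GLI2 and FGFR1 fell, so that 3 of the 9 members tested were higher and 1 was lower. Over all genes, 21.9% were called (10.1% higher and 11.8% lower). The median log2 fold change of the 9 tested members was 0.40, beside -0.015 over all genes. These counts and the median are descriptions, since FGFR3 passed the filter on low values only through the group in which it was high. KLB, at about 0.1 FPKM, was the member not tested. The groups did not overlap for 6 of the 9, beside 42.0% of all genes. All 4 calls held under every alternative in which the gene was tested. The number called over all genes, 2742, was 1223 without iEV replicate 2, 1303 without iEV replicate 3, 1357 without iGLI2 replicate 2 and 1510 without iGLI2 replicate 3. Leaving out small RNA genes and rescaling the libraries moved the share of calls that were higher from 46.0% to 59.4%, with 3 members higher and 1 lower there too. In a bulk sample, fewer cells that express a gene and less RNA per cell cannot be told apart.

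**Figure D1:**
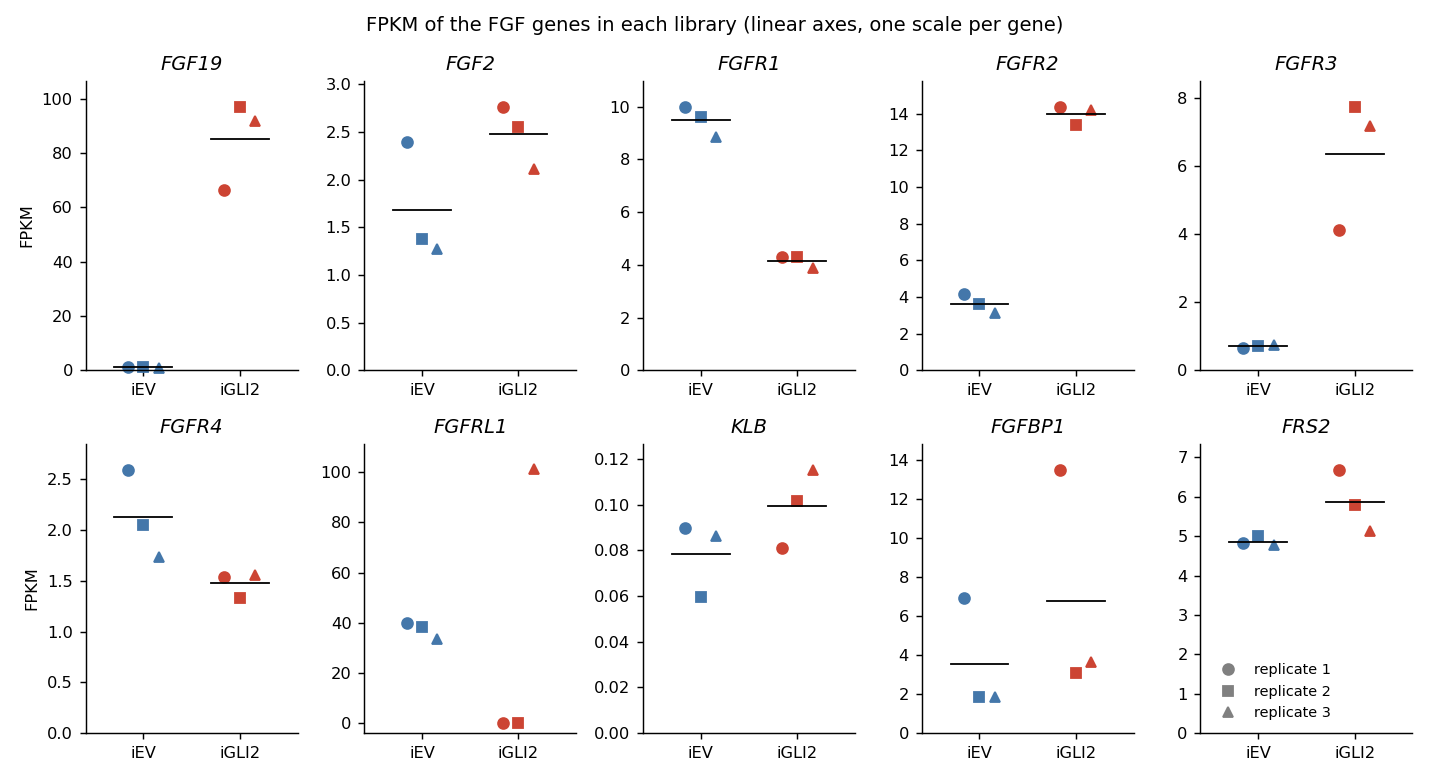
FPKM of the 10 genes in each library, on linear axes with a scale for each gene, for iEV (blue) and iGLI2 (red); the marker shape gives the replicate number and the black line the mean of 3 libraries, left out for FGFRL1. FGF19 goes from about 1 FPKM to between 66.4 and 96.8 FPKM, FGFR2 and FGFR3 lie higher and FGFR1 lower in every iGLI2 library, and FGFBP1 is highest in replicate 1 of both groups.

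Among the ligands, FGF19 stood at 1.05, 1.13 and 0.861 FPKM in iEV and reached 66.4, 96.8 and 91.9 FPKM in iGLI2 libraries, in the order of replicates 1, 2 and 3. It was thus barely detected in the control libraries and, with GLI2, the most abundant of the 9 members other than FGFRL1. The means were 1.02 ± 0.139 and 85.0 ± 16.3 FPKM (SD, n = 3 each), an 83.8-fold difference and 5.40 apart on the log2(FPKM + 1) scale (standard error, SE, 0.15, limma adjusted p = 8.61e-05). Replicate 1, which had 0.470 of the mean GLI2 level of the other iGLI2 libraries, had 0.704 of their FGF19 level. A ratio of this kind from 3 libraries is a description.

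The profile of FGF19 was set beside those of all genes tested, as log2(FPKM + 1) relative to the iEV mean over the 6 libraries. The 5 nearest by Euclidean distance were S100A2, MIR4517, BHLHE41, GLI2 itself and MIR3934, at distances of 1.89, 2.16, 2.33, 2.48 and 2.84. S100A2, a calcium-binding protein, had 7.14, 9.65 and 7.88 FPKM in iEV and 175, 192 and 184 FPKM in iGLI2 replicates 1, 2 and 3. BHLHE41, a transcriptional repressor of the circadian clock, had 4.18, 5.0 and 4.87 FPKM in iEV and 73.9, 105 and 106 FPKM in iGLI2 replicates. Like FGF19 and GLI2, BHLHE41 was lowest in iGLI2 replicate 1, as was S100A2 by a smaller margin. The microRNA genes MIR4517 and MIR3934 are listed at 0 in all iEV libraries. In iGLI2 replicates 1, 2 and 3, MIR4517 had 87.2, 63.0 and 139 FPKM and MIR3934 had 27.1, 10.7 and 11.1 FPKM. Both were thus lowest in replicate 2, not in replicate 1. FPKM divides by transcript length, so the values of such short genes are not read as levels comparable to that of FGF19. With only 2 groups, any gene with a similar rise is near FGF19 in this measure. The distance also includes iGLI2 replicate 1, so a shared low value there is partly a result of how the genes were picked.

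FGF19 lies on chromosome 11 of hg19 from 69513006 to 69519106, and the table holds 9 other genes within 500 kb. Of these, 4 were tested, 1 rose and none fell (beside 10.1% higher and 11.8% lower of all genes), while 5 were too low. ANO1, a calcium-activated chloride channel whose locus begins 405 kb from FGF19, rose from 6.02 ± 1.15 to 12.1 ± 0.111 FPKM (SD, n = 3 each; log2 fold change 0.91, limma adjusted p = 0.00480). CCND1, the cyclin D1 gene 43.8 kb from FGF19 on the other side, had 154, 140 and 140 FPKM in iEV and 143, 102 and 101 FPKM in iGLI2 replicates 1, 2 and 3. Its groups overlapped and its log2 fold change was -0.34 (limma adjusted p = 0.154), and it passed as lower without iGLI2 replicate 1 (limma adjusted p = 0.00528) and under none of the other alternatives. ORAOV1, 22.8 kb away, averaged 13.4 FPKM with the empty vector and 11.6 FPKM with GLI2 (log2 fold change -0.20, limma adjusted p = 0.0634), and MYEOV had 85.3 and 98.1 FPKM (log2 fold change 0.20, limma adjusted p = 0.108). MYEOV passed as higher with small RNA genes left out and libraries rescaled (limma adjusted p = 0.0291). The ligand gene FGF3, 106 kb away, is listed at 0 in all iEV libraries and at 0.538, 0.208 and 0.241 FPKM in iGLI2 replicates 1, 2 and 3. FGF4, which lies between FGF19 and FGF3, is listed at 0 in all 6 libraries. The 95% intervals of the 4 tested neighbours ended at 1.21 or lower on the log2 scale, and that of FGF19 began at 5.03.

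**Figure D2:**
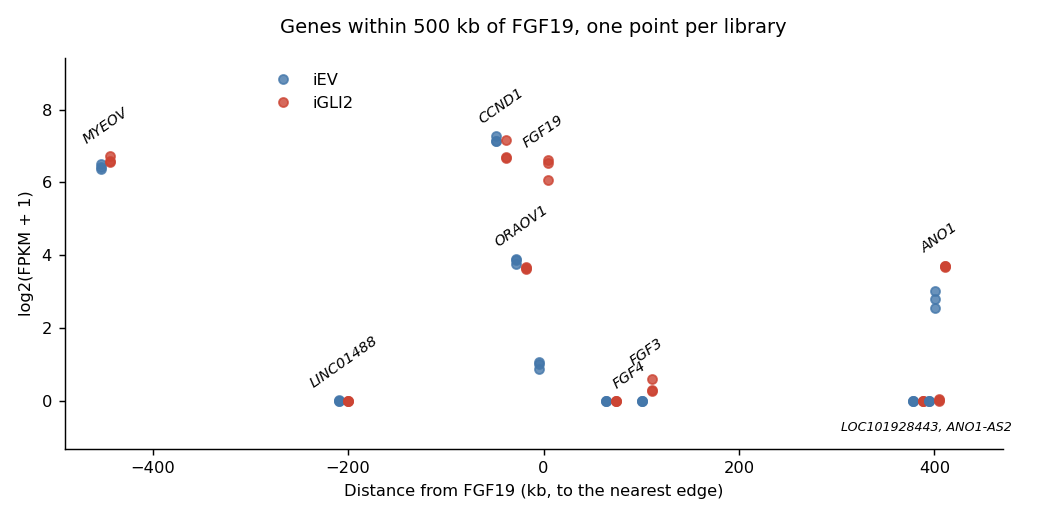
log2(FPKM + 1) of the genes within 500 kb of FGF19 against their distance from it in kb, with a point for each iEV (blue) and iGLI2 (red) library, the groups set side by side. FGF19, at distance 0, stands apart by the gap between its groups; ANO1 is the other tested gene that rose, and FGF3 leaves 0 only in the iGLI2 libraries.

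FGF2, a heparan-binding ligand that signals through several receptors, had 2.39, 1.37 and 1.27 FPKM in iEV and 2.76, 2.55 and 2.11 FPKM in iGLI2 replicates 1, 2 and 3. The groups overlapped through iEV replicate 1. Its difference of 0.40 on the log2 scale (95% interval -0.039 to 0.83) did not pass the test (limma adjusted p = 0.171), and without iEV replicate 1 it was 0.58 with a limma adjusted p of 0.0295.

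The other 20 FGF genes were mostly at or near 0. Only FGF1 averaged 1 FPKM or more, and the remaining 19 were under 1 FPKM in every library, 4 of them listed at 0 throughout. FGF1, which binds all FGF receptors, had 1.02, 2.38 and 1.87 FPKM in iEV and 0.682, 1.06 and 0.825 FPKM in iGLI2 replicates 1, 2 and 3 (log2 fold change -0.54, limma adjusted p = 0.121). Its groups overlapped, and it passed as lower in 2 of 15 alternatives, among them without iEV replicate 1 (limma adjusted p = 0.0256). Below the limit for testing, FGF18 had 0.0633, 0.0714 and 0.0732 FPKM in iEV and 0.719, 0.881 and 0.904 FPKM in iGLI2 replicates, and FGF9 had 0.0594, 0.0419 and 0.0435 against 0.701, 0.559 and 0.501 FPKM. Both are heparan-dependent ligands that signal in development, and their groups did not overlap, at levels under 1 FPKM for which no counting error is known. The endocrine ligand FGF23 is listed at 0 in all libraries, and FGF21, also endocrine, was at or under 0.107 FPKM. FGF19 was therefore the FGF ligand with the highest level in the iGLI2 libraries, and in the iEV libraries FGF1 and FGF2 had the highest means, 1.76 and 1.68 FPKM, with ranges that overlapped each other.

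The receptors moved in different directions. FGFR1, which in epithelial cancers is often linked to mesenchymal features, had 9.98, 9.61 and 8.85 FPKM in iEV and 4.30, 4.31 and 3.86 FPKM in iGLI2 replicates 1, 2 and 3. The iGLI2 values all lay below the iEV values, and the drop was similar in all 3. The mean was 2.28-fold lower in iGLI2 cells, and the log2 fold change was -1.02 (SE 0.072, limma adjusted p = 6.42e-04).

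FGFR2, whose splice forms divide epithelial from mesenchymal ligand specificity, had 4.18, 3.60 and 3.10 FPKM in iEV and 14.3, 13.4 and 14.2 FPKM in iGLI2 replicates 1, 2 and 3. The groups were far apart and the iGLI2 libraries lay close together. The mean was 3.86-fold higher, with a log2 fold change of 1.70 (SE 0.097, limma adjusted p = 3.51e-04). The table gives a value per gene, and its splice forms were not analysed here.

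FGFR3, a receptor frequently activated in urothelial cancer, had 0.663, 0.711 and 0.729 FPKM in iEV and 4.12, 7.72 and 7.17 FPKM in iGLI2 replicates 1, 2 and 3. It went from the lowest of the 4 kinase receptors to a level above that of FGFR1 by the mean. The mean was 9.04-fold higher, and the log2 fold change was 2.07 (SE 0.21, limma adjusted p = 0.00184). FGFR3 passed the filter on low values through the iGLI2 libraries only, and it was also called with no filter. As with FGF19, iGLI2 replicate 1 was the lowest, at 0.554 of the mean of the other iGLI2 libraries, whereas for FGFR2 the same ratio was 1.04.

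FGFR4, the principal receptor of FGF19 in liver, had 2.59, 2.05 and 1.74 FPKM in iEV and 1.54, 1.33 and 1.56 FPKM in iGLI2 replicates 1, 2 and 3. The groups did not overlap, but the gap between them was small beside the spread of the iEV libraries. The log2 fold change of -0.33 (95% interval -0.63 to -0.030) did not pass after adjustment (limma adjusted p = 0.113), nor under any alternative. FGFR4 was thus present at low level in both groups, and it was the lowest of the 4 kinase receptors in every iGLI2 library.

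Within each library, the 4 kinase receptors were also expressed as shares of their summed FPKM, a measure that does not depend on scaling between libraries. FGFR1 held 57.3%, 60.2% and 61.4% in iEV and 17.7%, 16.1% and 14.4% in iGLI2 replicates 1, 2 and 3. FGFR2 held 24.0%, 22.5% and 21.5% in iEV and 59.0%, 50.01% and 53.0% in iGLI2 replicates. The most abundant receptor transcript was thus FGFR1 in every iEV library and FGFR2 in every iGLI2 library. FGFR3 went from between 3.81% and 5.05% to between 17.0% and 28.9%, and FGFR4 from between 12.1% and 14.9% to between 4.98% and 6.34%. The differences in mean share were -43.5, 31.3, 19.8 and -7.56 percentage points for FGFR1, FGFR2, FGFR3 and FGFR4. For each the groups did not overlap, and the exact permutation p was 0.1, two-sided, which is the smallest that 3 libraries against 3 allow (0.1 after adjustment over the 4 shares). The shares sum to a fixed total and are not independent of each other. The summed FPKM of the 4 was 15.9 ± 1.5 in iEV and 25.9 ± 1.42 in iGLI2 cells (SD, n = 3 each; exact permutation p = 0.1).

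**Figure D3:**
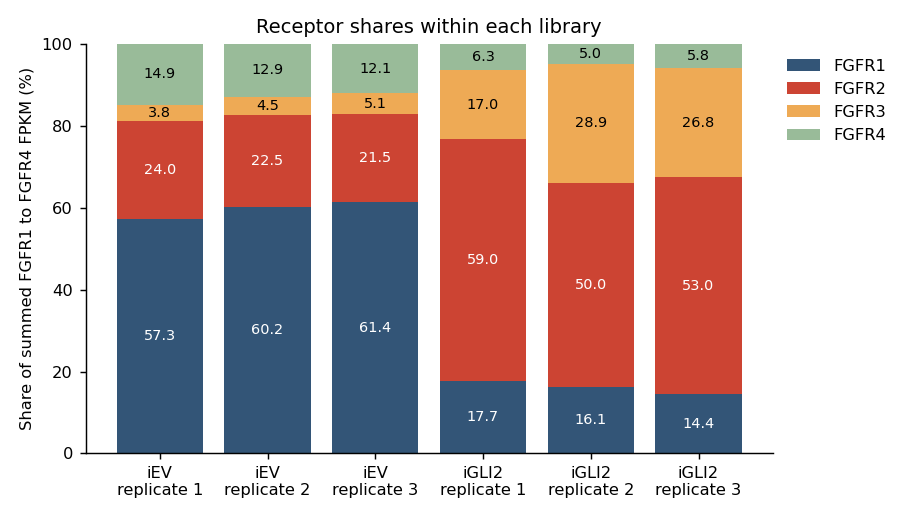
Share of each kinase receptor in the summed FPKM of FGFR1 to FGFR4, in percent, as a stacked bar for each library with the values printed. FGFR1 takes 57.3% to 61.4% in the iEV libraries, and FGFR2 takes 50.01% to 59.0% in the iGLI2 libraries.

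FGFRL1, a receptor-like protein that binds FGF but lacks a kinase domain, had 39.9, 38.3 and 33.4 FPKM in the iEV libraries and is listed at 0, 0 and 101 FPKM in iGLI2 replicates 1, 2 and 3. The iGLI2 libraries thus contradict each other, and no mean is given. The fit with the listed zeros gave a log2 fold change of -3.03 with a 95% interval of -7.48 to 1.43 (limma adjusted p = 0.294). With these zeros read as missing, which drops iGLI2 replicates 1 and 2 and leaves the group with a single library, it was 1.43 (limma adjusted p = 0.00720, on the assumption that the lone library varies like the iEV libraries), and without iGLI2 replicate 3 it was -5.25 (limma adjusted p = 6.45e-04). Its direction therefore could not be determined. In the iEV libraries FGFRL1 was above every other member.

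The co-receptor KLB was near 0 in both groups. It had 0.0896, 0.0594 and 0.0860 FPKM in iEV and 0.0809, 0.101 and 0.115 FPKM in iGLI2 replicates 1, 2 and 3, and the groups overlapped. The table places KLB in a merged locus on chromosome 4 from 39046451 to 39640481 together with other genes. KRT8 and KRT18, which also share a merged locus, are listed at 0 in all 6 libraries. Whether the merged locus affects the value of KLB was not tested. As listed, FGF19 at 85.0 FPKM stood beside the co-receptor KLB at 0.0991 FPKM in the same iGLI2 cells, by the means of the groups. Its paralog KL, the co-receptor of FGF23, had 0.679, 0.469 and 0.394 FPKM in iEV and 0.361, 0.311 and 0.244 FPKM in iGLI2 replicates, below the limit for testing. LCTL, a further member of the klotho family, had 3.91 ± 0.330 and 2.88 ± 0.485 FPKM (SD, n = 3 each; log2 fold change -0.34, limma adjusted p = 0.0767), and passed as lower without iGLI2 replicate 1 (limma adjusted p = 0.0152).

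FGFBP1 encodes a secreted carrier that releases FGFs from heparan sulfate. It had 6.94, 1.83 and 1.84 FPKM in iEV and 13.5, 3.10 and 3.66 FPKM in iGLI2 replicates 1, 2 and 3. Replicate 1 was the highest of both groups, and between libraries of the same number the iGLI2 value was 1.95, 1.69 and 1.99 times the iEV value. The groups overlapped, and the log2 fold change of 0.70 (95% interval -0.82 to 2.23) did not pass the test (limma adjusted p = 0.469). It was 0.13 without iGLI2 replicate 1 and 1.20 without iEV replicate 1, and it passed as higher in 1 of 16 alternatives, the fit that blocks on the replicate number. FGFBP1 was among 106 genes (0.848% of those tested) that were over 1.5-fold higher in replicate 1 than in replicates 2 and 3 in both groups, with FGFBP3 and IL17RD the others of the pathway genes. The labels do not say what libraries of the same number share.

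The other FGF-binding proteins differed from FGFBP1. FGFBP2, whose gene lies beside FGFBP1 on chromosome 4 in the table, had 0.0293, 0.0320 and 0.0725 FPKM in iEV and 3.17, 1.56 and 1.70 FPKM in iGLI2 replicates 1, 2 and 3. It rose from near 0 in every iGLI2 library, with a log2 fold change of 1.55 (SE 0.20, limma adjusted p = 0.00443), and it passed the filter through the iGLI2 libraries only. FGFBP3 had 1.65, 0.746 and 0.527 FPKM in iEV and 3.00, 1.02 and 1.13 FPKM in iGLI2 replicates, with replicate 1 high in both groups (limma adjusted p = 0.417). CD44, a hyaluronan receptor listed with the membrane partners, rose 1.83-fold to 73.3 ± 1.99 FPKM (SD, n = 3; limma adjusted p = 0.00138). Of the 11 genes in this list of klothos, binding proteins and partners, 4 were tested, 2 rose and none fell. Of all genes, 10.1% were called higher and 11.8% lower. The count is a description, since FGFBP2 was tested only because it was high in the iGLI2 libraries. LCTL, also among the 4, passed as lower without iGLI2 replicate 1 (limma adjusted p = 0.0152).

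FRS2, the adaptor that docks on activated FGF receptors, had 4.82, 5.0 and 4.77 FPKM in iEV and 6.68, 5.79 and 5.12 FPKM in iGLI2 replicates 1, 2 and 3. The groups did not overlap, by a narrow margin. The log2 fold change of 0.22 (95% interval -0.0088 to 0.45) did not pass (limma adjusted p = 0.152), nor under any alternative. Its paralog FRS3 rose 1.38-fold, from 12.6 ± 0.321 to 17.5 ± 2.36 FPKM (SD, n = 3 each; limma adjusted p = 0.0328), but lost the call without each iEV replicate in turn and without iGLI2 replicates 2 and 3 (limma adjusted p up to 0.118). Of 13 receptor-proximal adaptors and enzymes, FRS3 was the only one of the 12 tested that was called (8.33%, beside 21.9% of all genes). GRB2, SOS1, PTPN11, SHC1 and PLCG1 were not called. GRB2, an adaptor that FRS2 recruits, had 43.1 ± 0.755 and 38.1 ± 0.645 FPKM (SD, n = 3 each; limma adjusted p = 0.0613), and passed as lower in 4 of 16 alternatives, among them without iGLI2 replicate 1 (limma adjusted p = 0.0399). PLCG1 passed as higher in 3 of 16 alternatives and PTPN11 as lower in 1 of 16, while SOS1 and SHC1 passed in none.

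In order of level in the iEV libraries, FGFR1 stood first among the members other than FGFRL1, followed by FRS2, FGFR2, FGFBP1, FGFR4, FGF2, FGF19, FGFR3 and KLB. The neighbours from FGFR2 to FGF2 overlapped in their ranges. In the iGLI2 libraries the order was FGF19, FGFR2, FGFBP1, FGFR3, FRS2, FGFR1, FGF2, FGFR4 and KLB. There the neighbours from FGFR2 to FRS2 overlapped, and the other neighbours did not. Genes further apart in this order were not all separate, since FGFR3 and FGFBP1 overlapped FGFR1 in their ranges.

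Beside the members, 6 lists of FGF pathway genes held 95 gene names, of which 48 were tested. Of these, 14 rose and 4 fell (29.2% and 8.33%, beside 10.1% and 11.8% of all genes), and their median log2 fold change was 0.065. The lists were chosen with earlier results known. Of the 18 calls, 12 held under every alternative, and ETV4, EXTL2, FABP6, FRS3, SPRED2 and SPRY1 lost theirs under some, each of them when iEV replicate 2, iEV replicate 3, iGLI2 replicate 2 or iGLI2 replicate 3 was left out. In those fits their limma adjusted p reached between 0.0924 for SPRED2 and 0.148 for ETV4. None of the 18 changed sign. FGFBP2 and SPRED3, among the 14 that rose, averaged under 1 FPKM in iEV cells, so the counts are descriptions.

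**Figure D4:**
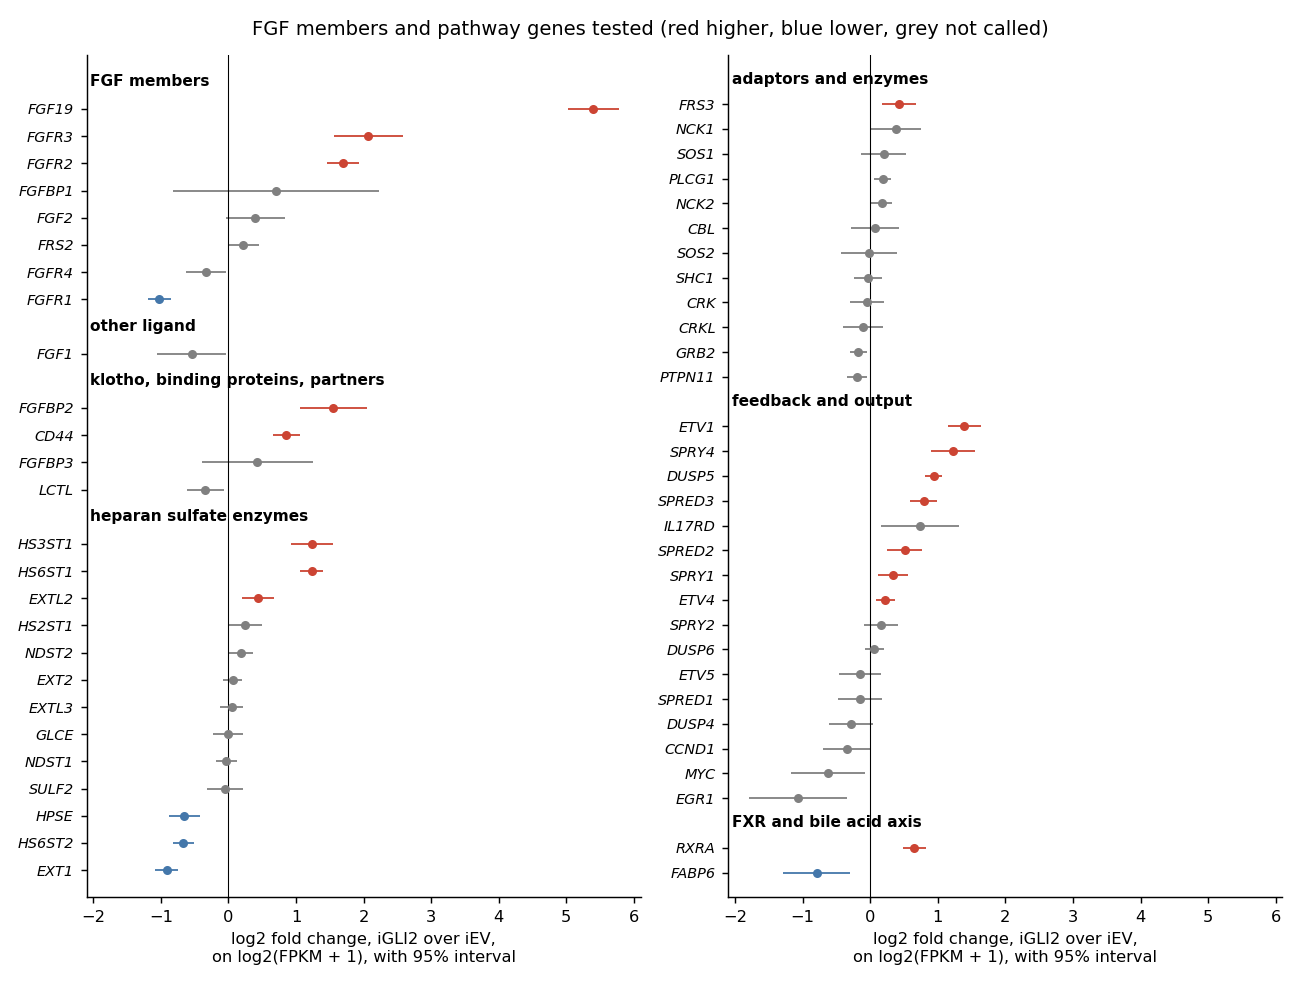
log2 fold change of iGLI2 over iEV on the log2(FPKM + 1) scale with its 95% interval, for the tested members other than FGFRL1 (left, top) and the tested genes of 6 pathway lists; red was called higher, blue called lower and grey not called. FGF19 lies at 5.40, FGFR3 and FGFR2 follow, and most adaptors lie near 0.

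Heparan sulfate enzymes build the sugar chains that most FGFs need, and they changed in both directions. Of 21 genes, 13 were tested, 3 rose and 3 fell, with a median log2 fold change of 0.045. That is 46.2% called, beside 21.9% of all genes. HS6ST1, which adds 6-O-sulfate, had 19.4, 17.9 and 18.1 FPKM in iEV and 41.8, 44.1 and 47.9 FPKM in iGLI2 replicates 1, 2 and 3 (log2 fold change 1.23, limma adjusted p = 3.74e-04). Its paralog HS6ST2 fell, from 16.5, 15.8 and 14.9 FPKM to 9.59, 9.04 and 9.97 FPKM (log2 fold change -0.67, limma adjusted p = 0.00168). The 2 enzymes of the same reaction, at similar levels in iEV cells, thus moved in opposite directions. HS3ST1, which adds the rarer 3-O-sulfate, rose from 12.7 ± 0.623 to 31.6 ± 5.36 FPKM (SD, n = 3 each; limma adjusted p = 0.00204). EXT1, a polymerase of the chain, fell from 18.4 ± 1.07 to 9.27 ± 0.467 FPKM (SD, n = 3 each; limma adjusted p = 7.46e-04), while its partner EXT2 had 34.9 and 36.5 FPKM and differed by 0.061 on the log2 scale (95% interval -0.083 to 0.20). HPSE, the heparanase that cleaves the chains, fell 1.88-fold to 1.83 ± 0.248 FPKM (SD, n = 3; limma adjusted p = 0.00661). EXTL2 rose 1.45-fold (limma adjusted p = 0.0253). SULF2, which removes 6-O-sulfate outside the cell, had 76.7 and 74.5 FPKM (limma adjusted p = 0.779).

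Feedback and output genes of FGF and ERK signaling included 7 that rose and none that fell, of 16 tested. That is 43.8% called, beside 21.9% of all genes (10.1% higher and 11.8% lower). Their median log2 fold change was 0.19. These genes also answer to other growth factor receptors. SPRY4, a Sprouty inhibitor, had 19.3, 14.04 and 15.1 FPKM in iEV and 42.9, 37.1 and 36.2 FPKM in iGLI2 replicates 1, 2 and 3 (log2 fold change 1.22, limma adjusted p = 0.00247). ETV1, a transcription factor downstream of ERK, had 4.88, 3.90 and 3.72 FPKM in iEV and 12.9, 12.8 and 11.8 FPKM in iGLI2 replicates (log2 fold change 1.39, limma adjusted p = 6.62e-04). DUSP5, a nuclear ERK phosphatase, rose 1.93-fold to 100.3 ± 2.04 FPKM (SD, n = 3; limma adjusted p = 3.46e-04). In all 3 genes the groups were far apart. SPRED3, which passed the filter on low values through the iGLI2 libraries only, rose 2.61-fold (limma adjusted p = 0.00182). SPRED2 rose 1.44-fold (limma adjusted p = 0.0223), SPRY1 1.27-fold (limma adjusted p = 0.0433) and ETV4 1.17-fold (limma adjusted p = 0.0401). The calls of SPRED2, SPRY1 and ETV4 held in only 12, 9 and 10 of 16 alternatives.

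Other genes of the same list did not pass. DUSP6, a cytoplasmic ERK phosphatase that is a common readout of FGF signaling, had 132, 125 and 123 FPKM in iEV and 132.5, 130.02 and 134 FPKM in iGLI2 replicates 1, 2 and 3. Its log2 fold change was 0.061, and the 95% interval of -0.080 to 0.20 leaves room only for small changes. ETV5 had 20.5 ± 3.53 and 18.2 ± 1.21 FPKM (SD, n = 3 each; limma adjusted p = 0.443), and SPRY2 had 40.7 ± 2.40 and 45.8 ± 5.60 FPKM (SD, n = 3 each; limma adjusted p = 0.335). SPRY2 passed as higher without iGLI2 replicate 1 (limma adjusted p = 0.0413). In that same fit DUSP4 and CCND1 passed as lower (limma adjusted p = 0.00446 and 0.00528). DUSP4 had 76.7 ± 1.59 and 63.6 ± 12.1 FPKM with all libraries (SD, n = 3 each; log2 fold change -0.28, limma adjusted p = 0.190). The immediate early gene EGR1 had 7.51, 12.8 and 11.5 FPKM in iEV and 2.64, 5.98 and 5.17 FPKM in iGLI2 replicates, with groups that did not overlap and a difference of -1.07 on the log2 scale (limma adjusted p = 0.0503). It passed as lower in 4 of 16 alternatives. MYC had 98.4 ± 17.98 and 64.1 ± 15.7 FPKM (SD, n = 3 each; limma adjusted p = 0.104), and passed as lower in 1 of 16 alternatives. IL17RD, a membrane inhibitor of FGF signaling, had 3.22, 1.76 and 1.79 FPKM in iEV and 5.92, 3.57 and 3.69 FPKM in iGLI2 replicates, and its limma adjusted p of 0.0778 became 0.0451 without iEV replicate 1, 1 of 2 alternatives out of 15 in which it passed as higher.

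Genes of the bile acid axis that controls FGF19 in the intestine were mostly near 0. Of 13 names, 12 were in the table and 2 were tested. NR1H4, which encodes FXR, was at or under 0.0173 FPKM in every library, and NR0B2, a target of FXR, was at or under 0.304 FPKM. CYP7A1, the rate-limiting enzyme of bile acid synthesis that FGF19 represses in liver, was at or under 0.0300 FPKM. The FXR partner RXRA, which also pairs with other nuclear receptors, rose from 18.9 ± 1.12 to 30.3 ± 1.45 FPKM (SD, n = 3 each; log2 fold change 0.65, limma adjusted p = 0.00231). FABP6, an ileal bile acid binding protein, fell from 6.72, 8.69 and 12.5 FPKM to 4.40, 4.90 and 5.08 FPKM in replicates 1, 2 and 3 (log2 fold change -0.79, limma adjusted p = 0.0397).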

How the data were processed

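RNA-seq of 6 YAPC libraries, 3 iEV and 3 iGLI2 after 6 days of Dox, was analysed from a table that the authors deposited. Its values are read as FPKM, made by the authors with TopHat2 and Cuffdiff 2.1.1 per the submitters' processing notes, with loci on hg19. Of 27024 rows, 1252 off the primary chromosomes and 330 with a repeated name and a lower mean were dropped, which left 25442 genes. A merged locus shares its reads between genes. The table holds no counts, so depth is unknown and no count model was run. Fits used limma 3.58.1 (with an intensity trend) in R 4.3.3 on log2(FPKM + 1), for genes averaging 1 FPKM or more, with group as the only term. Ratios are of mean FPKM, and fold changes are on the log2 scale. Receptor shares used exact permutation tests (scipy 1.17.1). The script was tested on simulated data.

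By rule, the genes named are the 10 members, the called genes of the pathway lists, ligands above 1 FPKM, the 5 profiles nearest to FGF19, its neighbours within 500 kb and GLI2. The other pathway genes and the markers were named after their values were seen. The members and lists were chosen with earlier results of these data known. Alternatives changed the scaling, pseudocount (0.1), filter (none, or a mean of at least 5 FPKM), trend and block, left out each library in turn, and read listed zeros as missing.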

Additional observations from a re-analysis of the deposited data

How the results depend on the processing

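The calls of FGF19, FGFR1, FGFR2 and FGFR3 held in each alternative that tested them, and FGFR3 was not tested with a mean of at least 5 FPKM. FGFR4 and FRS2 passed in none. FGF19 had a log2 fold change of 5.30 to 6.24, the last with a pseudocount of 0.1. The number of genes called over all genes, 2742, ranged from 1223 to 3753 when 1 library was left out, the last without iGLI2 replicate 1. The members called ranged from 3 to 5, and the other pathway genes called from 12 to 26. FGFRL1 changed sign, from -3.03 to 1.43 (limma adjusted p = 0.00720), with listed zeros read as missing, a choice made after seeing the data that leaves a single iGLI2 library, assumed to vary like the iEV libraries. Without iGLI2 replicate 3 it was -5.25. The cause was not tested. In the receptor shares, leaving out 1 library moved the difference for FGFR1 between -44.7 and -42.6 percentage points and for FGFR2 between 28.8 and 33.3. The unknown depth gives no counting error for low genes such as KLB.

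The labels share replicate numbers between groups. The codes in the titles also share a digit, which is 1 for replicates 1 and 2 and 2 for replicate 3 of both groups. A letter follows it, A for replicate 1 and B for replicate 2 of both groups. For replicate 3 the letter is A in iEV and B in iGLI2, so these codes do not match. The labels do not say what the digit or the letter means. Deviations from the group means correlated at 0.204, 0.0919 and 0.0276 between libraries numbered 1, 2 and 3 over 12493 genes, and iEV replicate 2 correlated best with iGLI2 replicate 3 (0.117), so replicate numbers were not taken as pairs. With the replicate number as a block, 3928 genes were called, with 5 members and 26 other pathway genes. FGFBP1 was the added member (log2 fold change 0.70, SE 0.084, limma adjusted p = 0.0102 with the block), and among the pathway genes IL17RD (limma adjusted p = 0.00443), EGR1 (0.00342), MYC (0.0114) and FGF1 (0.0436) passed there. With the code digit as the block, 2084 genes were called, with 4 members and 15 other pathway genes, and ETV4, FRS3 and SPRY1 lost their calls (limma adjusted p = 0.0832, 0.0632 and 0.0754). For the receptor shares, pairing allowed no exact p below 0.25.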
